A study of Mus musculus with 768 samples.

Results

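The S100 genes S100b, S100a1, S100a4, S100a6, S100a10, S100a11, S100a13 and S100a16 were followed in Schwann cells (SCs), which ensheathe the axons of peripheral nerves, taken from mouse sciatic nerve at postnatal day 60. They were chosen by name and found through their Ensembl identifiers, and all 8 were among the 25700 genes counted. Cells came from P0Cre : ReYFP : βAct-DsRed mice on the C57bl/6J background, in which a Cre recombinase active in the SC lineage switches on a yellow fluorescent reporter, so only cells whose lineage has expressed this Cre carry it. Every group described here shares these 3 transgenes, and the mice were otherwise untreated. Reporter-positive cells were sorted singly onto 2 plates of 384 wells, each with cells from different mice, males and females pooled, and libraries were made with a Smart-Seq2 protocol, which reads full-length cDNA without molecular identifiers. The plate was the replicate (n = 2), so each p-value rests on 2 pools of mice.

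S100 proteins are small vertebrate proteins with EF-hand calcium-binding sites. They mostly form dimers, and on binding calcium most of them expose a surface that docks to target proteins such as annexins, cytoskeletal proteins and enzymes. S100B is the member best known in glia, and antibodies to it are a standard stain for SCs. Most S100 genes lie in one cluster, which in the mouse is on chromosome 3, while S100b lies elsewhere.

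In the GENCODE M21 annotation of GRCm38, S100b lay at chr10:76253853-76261159 on the forward strand. The other genes lay on chromosome 3, in the order S100a1 (chr3:90511034-90514392, reverse strand), S100a13 (chr3:90514435-90524581), S100a16 (chr3:90537254-90543151), S100a4 (chr3:90603771-90606045), S100a6 (chr3:90612882-90624181), S100a11 (chr3:93520488-93526287) and S100a10 (chr3:93555080-93564643), all but S100a1 on the forward strand. S100a1 and S100a13 start back to back, with 42 bases between them. Promoter windows from RefSeq on GRCm38.p6 were matched for 7 of the 8 genes, all but S100a10, and 5 short motifs were searched in them on both strands. No motif contained another. The stretches shown are from S100b, S100a4 and S100a11, whose ratios between classes or clusters of cells were among the largest, and the interval that S100a1 and S100a13 share. Capitals mark CCAAT in S100b, TATAAA in S100a4 and TGANTCA, the motif of AP-1 factors, in S100a11, on either strand. The shared interval has no capitals. All are written 5′ to 3′ on the forward strand.
S100b, chr10:76253586-76253835: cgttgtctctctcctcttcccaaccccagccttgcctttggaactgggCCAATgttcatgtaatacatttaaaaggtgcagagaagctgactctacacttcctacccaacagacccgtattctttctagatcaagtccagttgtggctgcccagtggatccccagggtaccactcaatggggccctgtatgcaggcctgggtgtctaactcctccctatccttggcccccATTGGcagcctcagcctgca
S100a4, chr3:90603520-90603769: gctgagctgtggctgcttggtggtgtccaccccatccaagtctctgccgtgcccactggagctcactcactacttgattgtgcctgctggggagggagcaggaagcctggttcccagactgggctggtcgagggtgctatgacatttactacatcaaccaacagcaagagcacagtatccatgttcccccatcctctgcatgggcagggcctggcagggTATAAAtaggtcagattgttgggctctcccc
S100a11, chr3:93520246-93520487: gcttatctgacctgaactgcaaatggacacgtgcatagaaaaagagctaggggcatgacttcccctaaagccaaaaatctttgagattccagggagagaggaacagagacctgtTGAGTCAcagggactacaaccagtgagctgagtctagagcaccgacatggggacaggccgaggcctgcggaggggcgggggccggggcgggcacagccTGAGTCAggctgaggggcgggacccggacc
S100a1 and S100a13, chr3:90514393-90514434: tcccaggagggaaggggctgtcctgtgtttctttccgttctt
Among all 32851 windows of the table, CCAAT was in 37.4%, TATAAA in 13.6%, TGANTCA in 7.81%, GGGCGG in 35.7% and ACAAAG, a SOX-type motif, in 18.7%. S100b had 2 matches to CCAAT and S100a6 had 1. S100a4 had 1 match to TATAAA. S100a11 had 3 matches to GGGCGG and 2 to TGANTCA, and 1 of the windows of S100a16 had 1 match to each of these motifs. ACAAAG was in none of the windows of these genes. A match to these letters is a description of the sequence and not evidence of a bound factor.

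The count table held 768 cells and 283685199 reads, 74280540 on plate 1 and 209404659 on plate 2. With a minimum of 1500 detected genes, 340 and 334 cells were kept, and their median depth was 158689 reads on plate 1 and 452484 on plate 2, while the median number of detected genes was 3442 and 2295. Cells were clustered without any S100 gene and named from marker lists, since no cell annotation was used here. Clusters 2 (Emid1, Ncmap, Pllp) and 3 (Mfap5, Ogn) were myelinating SC-like (mSC-like), with 148 cells on plate 1 and 74 on plate 2. Clusters 0 (Apoe, Scn7a), 1 (Ednrb, Tagln2, Ccnd1) and 4 (Aldh1a1, Serping1) were non-myelinating, or Remak, SC-like (nm(R)SC-like), with 177 and 247 cells. The summed level of the mSC-like marker list was 74608 CPM (reads of a gene scaled to a common total of all reads in the sum) on plate 1 and 71183 on plate 2 in mSC-like cells against 6812 and 7409 in nm(R)SC-like cells. For the nm(R)SC-like list the sum was 104 and 204 against 3532 and 2695 CPM. Within that class this sum was lowest in cluster 1, at 2114 and 2105 CPM. It was 4624 and 3092 in cluster 0 and 4439 and 2385 in cluster 4. Scn7a, Cdh2, Emp1 and Chl1 were lowest in cluster 1 on both plates, with Scn7a at 477 and 417 CPM. Ednrb was highest there, and the other markers of the list were not lowest there on both plates. A cluster of cell-cycle genes stayed unnamed and was in neither class.

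In edgeR's test on sums per class none of the 8 S100 genes was called. Other fits called S100a11, S100a4 or, under 1 alternative, S100a16. The sizes of the ratios differed widely among the genes. S100a11, S100a13, S100a4 and S100a16 had lower CPM in mSC-like than in nm(R)SC-like cells on both plates. S100a1 had higher CPM in mSC-like cells on both plates, S100b had the higher value in mSC-like cells on plate 1 and nearly equal values on plate 2, S100a6 was slightly lower in CPM on both, and S100a10 changed direction between plates. With edgeR's quasi-likelihood test on reads summed per plate and class, plate as a block and Benjamini-Hochberg adjustment over 13247 genes, 352 genes (2.66%) differed, 166 with more mSC-like and 186 with more nm(R)SC-like signal, and 0 of the 8 S100 genes were among them. At an unadjusted p under 0.05, 2 of the 8 (S100a1 and S100a11) passed. The share of all genes at this unadjusted limit was not counted, here or in the comparisons below. Such counts therefore have no background to be read against. DESeq2 called 1 (S100a11), where it called 12.5% of all genes, limma on mean log levels per cell called 1 (S100a11), where it called 13% of all genes, and an edgeR fit on sums per cluster called 2 (S100a4 and S100a11), where it called 6.11% of all genes and 7.1% of those not used for clustering. The median log2 ratio, mSC-like over nm(R)SC-like, was −0.54 for the 8 genes and −0.13 for all genes tested, and with scaling by library size alone the latter was −0.28.

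**Figure D1:**
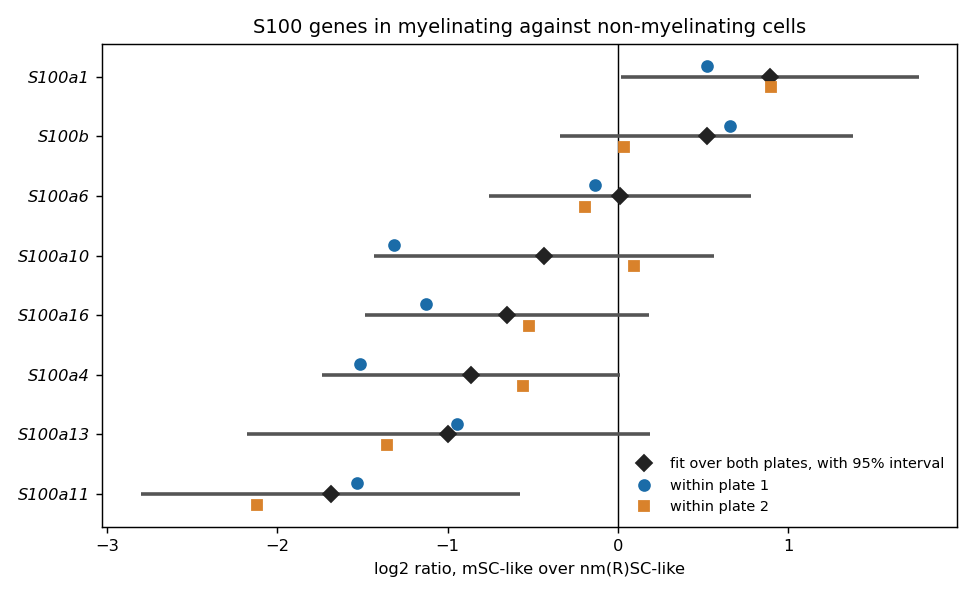
Log2 ratio of mSC-like over nm(R)SC-like cells for the 8 S100 genes, with the edgeR estimate over both plates (diamond) and its 95% interval, and the ratio of CPM within plate 1 (circle) and plate 2 (square). S100a11 lies furthest to the nm(R)SC-like side, at −1.69, and S100a1 furthest to the mSC-like side, at 0.89.

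S100b, the glial member, was at 416 CPM on plate 1 and 230.3 on plate 2 in mSC-like cells, and at 263 and 225 CPM in the nm(R)SC-like class. The classes overlapped, because the mSC-like value of plate 2 was below the nm(R)SC-like value of plate 1. The fitted log2 ratio was 0.52 ± 0.37 (SE), with a 95% interval from −0.34 to 1.38 (adjusted p = 0.705, edgeR). Within plates the log2 ratio of CPM was 0.66 on plate 1 and 0.04 on plate 2, and without the cell richest in S100b in each class the plate 2 value was −0.04.

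S100a1, a member best known from heart and skeletal muscle, where it acts on calcium handling, was at 222 and 182 CPM in mSC-like cells and at 154 and 96.8 CPM in the nm(R)SC-like class. Both mSC-like values were above both nm(R)SC-like values. With 2 values per group such a separation can arise by chance. The share of all genes without overlap was not counted, for this gene or for those below. The log2 ratio was 0.89 ± 0.38, with an interval from 0.02 to 1.77, and it did not pass after adjustment (adjusted p = 0.398, edgeR). Within plates the ratio was 0.53 and 0.90. Of its mSC-like reads on plate 1, 27.4% came from 1 cell, and without the richest cell of each class the within-plate ratios were 0.30 and 0.87. The interval depended on the scaling, and with library size alone the ratio was 0.72, with an interval from −0.17 to 1.61.

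S100a4, which binds non-muscle myosin and is often used as a fibroblast marker, was at 565 CPM on plate 1 and 305 on plate 2 in mSC-like cells and at 1616 and 449.6 CPM in the nm(R)SC-like class. The 565 CPM of plate 1 mSC-like cells was above the plate 2 level of the nm(R)SC-like class, so the classes overlapped across plates although the nm(R)SC-like value was the larger on each. The log2 ratio was −0.86 ± 0.38, with an interval from −1.74 to 0.01 (adjusted p = 0.417, edgeR), and −1.51 and −0.56 within plates. In the fit on cluster sums, which weighs clusters equally and not cells, it was −1.23 ± 0.27 and passed (adjusted p = 0.0176, edgeR). That fit takes clusters of the same 2 pools of mice as separate sums, which leaves 4 residual degrees of freedom. Under 10 alternatives of that fit the adjusted p lay between 0.0069 and 0.238, and it passed in 9 and failed without the replicate block. Among those that passed, a clustering resolution of 0.3 only repeated the main fit. The reads of S100a4 cannot be fully told apart from those of the gene model Gm42674, which shares 302 exon bases with it on the same strand. In kept cells Gm42674 had 76.2% as many reads as S100a4, and across the 674 cells their counts had a Pearson r of 0.999, as a description of cells that share these libraries.

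S100a6, or calcyclin, was the member read in most cells and was at 1471 and 477 CPM in mSC-like cells against 1611 and 546 in the nm(R)SC-like class. The classes were close within each plate, with log2 ratios of −0.13 and −0.19, and the plates were far apart. Its log2 ratio was 0.01 ± 0.33, and the interval from −0.76 to 0.78 leaves room for a difference of either sign (adjusted p = 0.999, edgeR). The sign depended on the scaling, at −0.16 with library size alone.

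S100a10 (p11), which does not need calcium to bind its partner annexin A2, was at 259 and 242 CPM in mSC-like cells and at 644 and 226 CPM in the nm(R)SC-like class. The plates went opposite ways, with log2 ratios of −1.31 on plate 1 and 0.10 on plate 2. The fitted ratio was −0.44 ± 0.43, with an interval from −1.43 to 0.56 (adjusted p = 0.829, edgeR).

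S100a11, a partner of annexin A1, was at 61.8 and 19.3 CPM in mSC-like cells and at 180.3 and 87.3 CPM in the nm(R)SC-like class. The classes did not overlap. The log2 ratio was −1.69 ± 0.48, with an interval from −2.80 to −0.57 (adjusted p = 0.147, edgeR), and −1.53 and −2.12 within plates. Without the richest cell of each class these were −1.46 and −2.33. DESeq2 gave −1.64 ± 0.54 (adjusted p = 0.0226), limma −1.88 ± 0.51 (adjusted p = 0.00342) and the edgeR fit on cluster sums −1.62 ± 0.42 (adjusted p = 0.0415). Under 10 alternatives of the last of these fits it passed in 5 and not in the other 5, with an adjusted p from 0.00141 to 0.122. Among those that passed, a clustering resolution of 0.3 only repeated the main fit. S100a11 was thus lower in mSC-like cells in all of these fits and past the limit in some of them.

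S100a13, which takes part in the release of Fgf1, was at 48.0 and 34.5 CPM in mSC-like cells and at 93.2 and 89.8 CPM in the nm(R)SC-like class, without overlap. The log2 ratio was −0.996 ± 0.51, with an interval from −2.18 to 0.19 (adjusted p = 0.523, edgeR). S100a16, a broadly expressed member, was at 194 and 294 CPM in mSC-like cells and at 426 and 422 CPM in the nm(R)SC-like class, also without overlap. Its ratio was −0.65 ± 0.36, with an interval from −1.49 to 0.18 (adjusted p = 0.563, edgeR). Neither gene passed this test. Under the 10 alternatives of the fit on cluster sums S100a13 passed in 0 and S100a16 in 1. That was with scaling by library size alone (adjusted p = 0.032, edgeR), where 807 of 13307 genes passed.

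Levels differed between the plates by more than between the classes for several genes. Over all kept cells, the level on plate 2 was 0.346 times that on plate 1 for S100a4, 0.35 for S100a6, 0.488 for S100a10, 0.539 for S100a11, 0.68 for S100a1 and 0.729 for S100b. S100a13 and S100a16 went the other way, at 1.08 and 1.22 times. The 8 genes summed to 4183 CPM on plate 1 and 2050.2 on plate 2. Plate, depth and pool of mice cannot be told apart here.

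The quotient of the neighbours S100a1 and S100a13 was larger in mSC-like cells. Scaled by exon length to the same total in every sum, the level of S100a1 was 4.76 times that of S100a13 on plate 1 and 5.42 times on plate 2 in mSC-like cells, and 1.70 and 1.11 times in the nm(R)SC-like class. In the mSC-like clusters the quotient was 2.92 and 7.03 (cluster 2) and 5.36 and 2.94 (cluster 3). In the nm(R)SC-like clusters it was 1.89 and 1.20 (cluster 0), 1.57 and 1.19 (cluster 1) and 1.63 and 0.913 (cluster 4). With all cells the mSC-like clusters did not overlap with the nm(R)SC-like clusters. This rested on single cells. Without the cell richest in S100a1 in each group, a setting chosen after seeing the data, the quotient was 3.46 and 5.65 against 1.504 and 1.02 in the classes, but 1.48 in cluster 3 on plate 2, below the 2.42 of cluster 4 on plate 1. The quotient itself was chosen after the values were seen and was not tested.

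**Figure D2:**
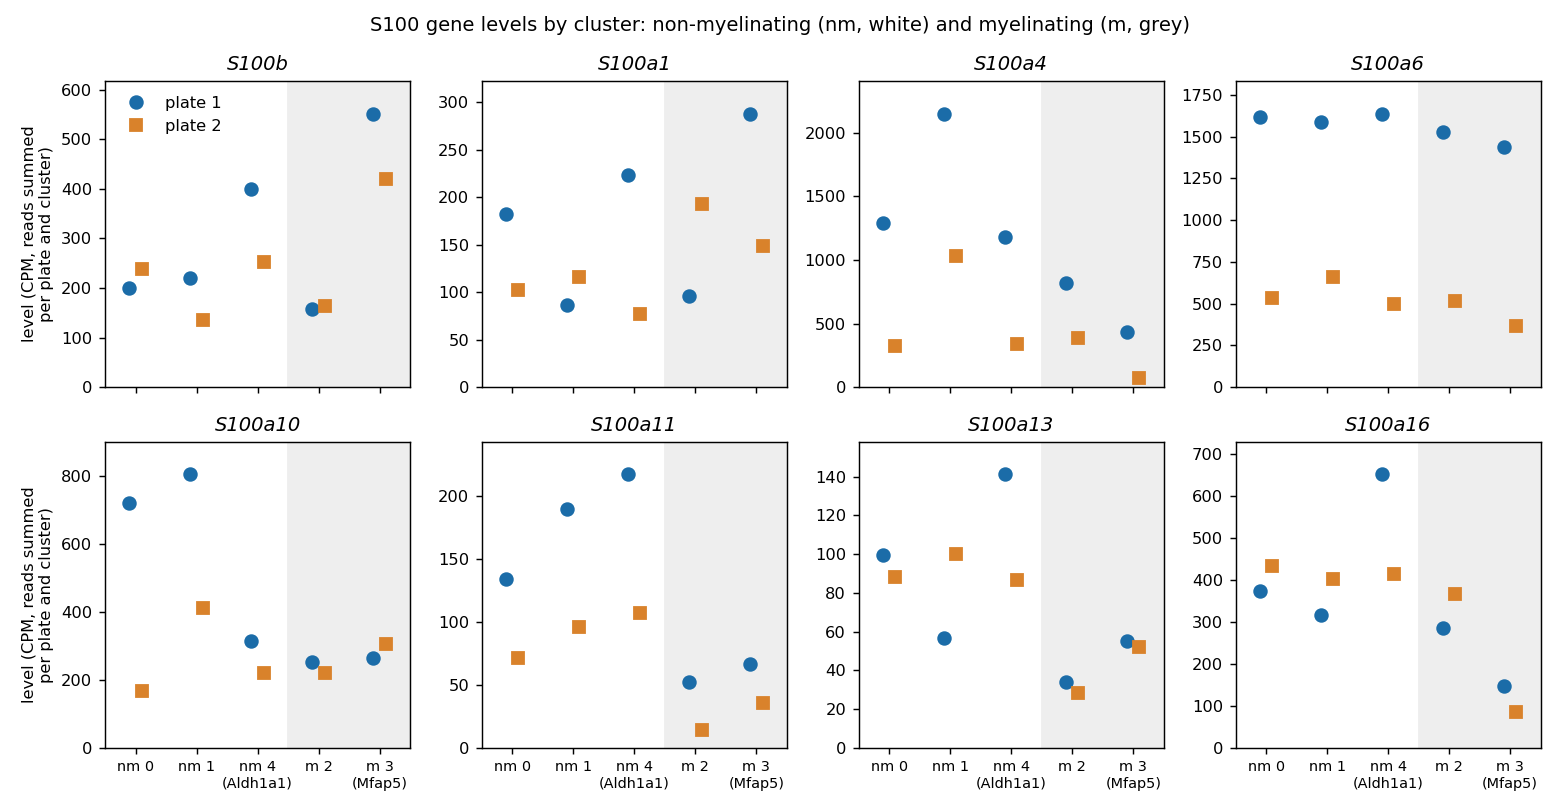
Level in CPM of the 8 S100 genes, 1 panel per gene on a linear axis from 0, in the nm(R)SC-like clusters 0, 1 and 4 (white, nm) and the mSC-like clusters 2 and 3 (grey, m), with 1 point per plate. S100b is highest in cluster 3 and S100a4 in cluster 1 on both plates, and S100a6 is about level across clusters with plate 1 far above plate 2.

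Within the mSC-like cells the S100 genes with the widest gaps between clusters were S100b, S100a4 and S100a16. S100b was at 551 CPM on plate 1 and 419 on plate 2 in cluster 3, which is led by Mfap5 and Ogn, and at 158 and 164 CPM in cluster 2. The values did not overlap. The log2 ratio of cluster 3 over cluster 2 was 1.79 ± 0.43, with an interval from 0.84 to 2.74, and it did not pass (adjusted p = 0.140, edgeR). DESeq2 called it, at 1.91 ± 0.55 (adjusted p = 0.0159). Of the S100b reads in cluster 3 on plate 2, 43.4% came from 1 of 18 cells, and without the richest cell of each cluster the log2 ratio within plates was 2.06 and 1.31, against 1.80 and 1.35 with all cells.

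S100a4 went the other way, at 433 and 71.0 CPM in cluster 3 and at 817 and 387 CPM in cluster 2, with a log2 ratio of −1.44 ± 0.41 (adjusted p = 0.263, edgeR). Its values overlapped across plates. S100a16 was at 146 and 84.8 CPM in cluster 3 and at 286 and 367 CPM in cluster 2, without overlap, with a ratio of −1.31 ± 0.44 (adjusted p = 0.402, edgeR).

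In the edgeR test across both mSC-like clusters 57 of 13307 genes (0.428%, and 0.507% of those not used for clustering) passed and 0 of the 8 S100 genes did, while 3 (S100b, S100a4 and S100a16) had an unadjusted p under 0.05. DESeq2 called 1 of the 8, where it called 5.14% of all genes and 4.72% of those not used for clustering. No S100 gene was used to make these clusters. S100a11, S100a13, S100a1, S100a10 and S100a6 had log2 ratios of 1.06 ± 0.62, 1.02 ± 0.72, 0.67 ± 0.66, 0.55 ± 0.52 and −0.06 ± 0.29. For S100a1 the plates went opposite ways, 1.57 and −0.37, and 49.5% of its reads in cluster 3 on plate 2 came from 1 cell.

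Among the nm(R)SC-like clusters S100a4 stood highest in cluster 1, led by Ednrb, Tagln2, Ccnd1 and ribosomal protein genes. It was at 2149 CPM on plate 1 and 1030.1 on plate 2 there, at 1289 and 320.0 CPM in cluster 0 and at 1180.3 and 341 CPM in cluster 4. On each plate cluster 1 was above the other clusters, and across plates the values overlapped. The log2 ratio of cluster 1 over the mean of the others was 1.03 ± 0.34, with an interval from 0.28 to 1.77 (adjusted p = 0.523, edgeR), and 0.80 and 1.64 within plates.

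S100b had its highest nm(R)SC-like level in cluster 4, the Aldh1a1 cluster, at 399 and 252 CPM. It was at 201 and 238 CPM in cluster 0 and at 220.0 and 135 CPM in cluster 1. Both cluster 4 values were above all values of the other nm(R)SC-like clusters. The log2 ratio of cluster 4 over the others was 0.85 ± 0.35 (adjusted p = 1, edgeR), and that of cluster 1 was −0.85 ± 0.38 (adjusted p = 0.723, edgeR).

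These were the 3 ratios of 24 with an unadjusted p under 0.05, and the other 21 lay between −0.72 and 0.62. In the test for any difference among the nm(R)SC-like clusters 5 of 13307 genes (0.0376%, and 0.0461% of those not used for clustering) passed, and 0 of the 8 S100 genes, 1 of which (S100a4) had an unadjusted p under 0.05. DESeq2 called 0 of the 8 and 115 of all genes (0.864%, and 0.738% of those not used for clustering), with 0 of the 8 at an unadjusted p under 0.05. For single clusters against the others edgeR called 0% of all genes in cluster 0, 0.113% in cluster 1 and 0.00751% in cluster 4, and 0 of the 8 S100 genes in each. S100a10 was at 720 and 167 CPM in cluster 0, 805 and 411 in cluster 1 and 315 and 219 in cluster 4, so its order among clusters 0 and 4 differed between plates. S100a11 was at 135 and 71.8, 190.1 and 96.4, and 218 and 107 CPM in clusters 0, 1 and 4, in that order on both plates. S100a6 held close levels, between 1591 and 1637 CPM on plate 1 and between 501 and 657 on plate 2. S100a1 was at 182 and 103 CPM in cluster 0, 86.9 and 116 in cluster 1 and 223 and 76.8 in cluster 4, and S100a13 at 99.5 and 88.2, 56.9 and 100.3, and 141 and 86.7. Both put cluster 1 lowest on plate 1 and highest on plate 2. S100a16 was at 374 and 434, 315 and 401, and 651 and 414 CPM. For S100a16 and S100a13 in cluster 4 of plate 1, 50.01% and 49.8% of the reads came from 1 of 39 cells.

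**Figure D3:**
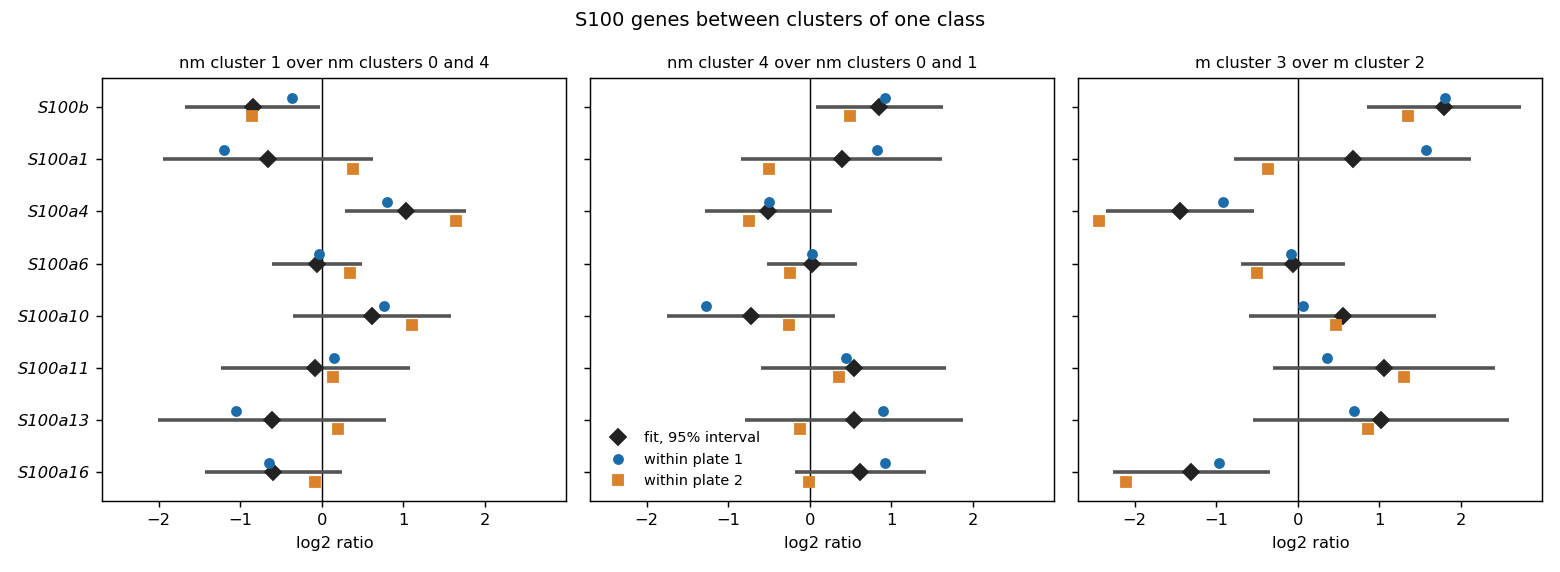
Log2 ratio of nm(R)SC-like cluster 1 over clusters 0 and 4 (left), cluster 4 over clusters 0 and 1 (middle) and mSC-like cluster 3 over cluster 2 (right) for the 8 S100 genes. Diamonds are edgeR estimates with 95% intervals, and circles and squares are the ratios of CPM within plate 1 and plate 2. The estimate furthest from 0 is that of S100b, 1.79, in the right panel.

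The share of cells with a read was compared after thinning each cell to 100000 reads, which 223 of the 340 plate 1 cells and 313 of the 334 plate 2 cells reached. S100a6 was read in 100% of plate 1 cells of both classes and in 95.9% (mSC-like) and 91.6% (nm(R)SC-like) of cells on plate 2. S100a11 was read in 59.6% of mSC-like cells on plate 1 (95% exact Clopper-Pearson interval 49.3% to 69.3%) and 21.9% on plate 2 (13.1% to 33.1%). Among cells of the nm(R)SC-like class this share was 81.2% (72.8% to 88.0%) and 49.8% (43.3% to 56.3%). These intervals cover counting error among cells of 1 pool of mice only, and no spread between pools. On each plate they did not overlap, and the share of all genes that separate in this way was not counted.

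S100b was read in 83.8% and 68.5% of mSC-like cells and in 76.8% and 50.2% of the nm(R)SC-like class, and S100a1 in 53.5% and 46.6% against 45.5% and 26.8%. Both shares were higher in mSC-like cells on both plates. On plate 2 the intervals of S100a1, which again cover counting error only, did not overlap (34.8% to 58.6% and 21.3% to 32.9%). The share of all genes that separate so was not counted here either. Without thinning the shares were 85.8% and 74.3% against 80.8% and 56.3% for S100b, 61.5% and 48.6% against 55.4% and 35.2% for S100a1, and 63.5% and 39.2% against 79.1% and 57.9% for S100a11.

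S100a4 was read in 90.9% and 45.2% of mSC-like cells against 94.6% and 50.2% of the nm(R)SC-like class, S100a10 in 85.9% and 58.9% against 91.1% and 56.1%, and S100a16 in 69.7% and 50.7% against 83.0% and 48.1%. S100a13 was the least often read in the nm(R)SC-like class after S100a1, in 45.5% and 24.7% of mSC-like cells and in 50.9% and 31.8% of the other class. Among the 8 genes the share was higher in mSC-like cells for 2 on plate 1 and 5 on plate 2. A thinned cell had reads of a median of 6 of the genes on plate 1 and 4 on plate 2, and all 8 were read in 15.7% and 1.92% of cells.

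**Figure D4:**
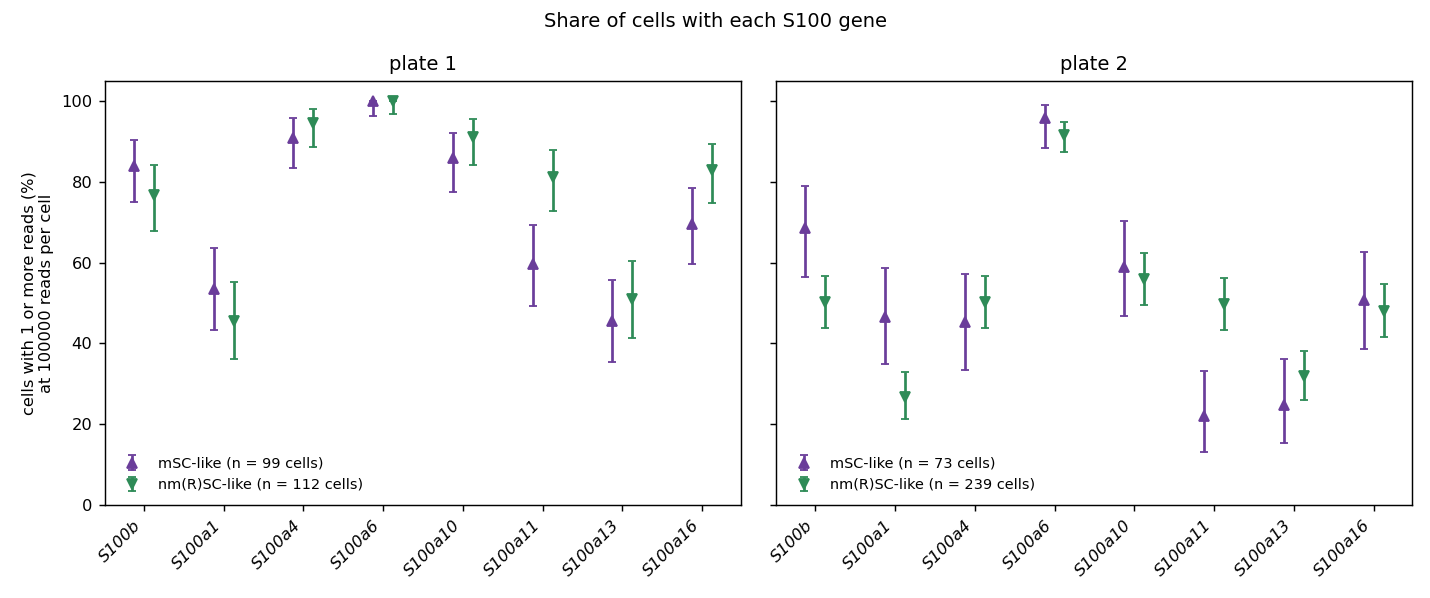
Percent of cells, thinned to 100000 reads, with 1 or more reads of each S100 gene, in mSC-like cells (upward triangles) and nm(R)SC-like cells (downward triangles) of plate 1 (left) and plate 2 (right), with 95% exact binomial intervals. Shares are lower on plate 2 than on plate 1 for every gene and class shown, and S100a11 has the widest gap between classes.

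Single cells spread widely around these sums. S100a6 had a median over cells of 1357 CPM in mSC-like cells of plate 1, with quartiles of 955 and 2038, and of 1391 CPM in the nm(R)SC-like class. On plate 2 the medians were 473 and 477 CPM. S100b had medians of 236 and 89.6 CPM in mSC-like cells and of 122 and 2.31 CPM in the nm(R)SC-like class, where the highest single cell reached 3879 CPM on plate 2. S100a11 had medians of 16.5 and 0 CPM in mSC-like and of 114 and 4.87 CPM in the nm(R)SC-like class.

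By levels scaled for exon length, which allow genes to be compared, S100a4 and S100a6 led in both classes. In mSC-like cells S100a4 was at 2199 on plate 1 and 1302 on plate 2 and S100a6 at 2444 and 869, and the plates overlapped. S100a1 came next at 726.1 and 651, with all cells clear of its neighbours in the order. Of its reads on plate 1, 27.4% came from 1 cell, and the order without that cell was not computed. S100b at 636 and 386 and S100a10 at 485 and 497 followed and overlapped with each other. S100a16 (273 and 452), S100a11 (275 and 94.2) and S100a13 (152 and 120.1) came last and each overlapped with the next.

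In nm(R)SC-like cells S100a4 was at 6580.5 and 1970.2, S100a6 at 2802 and 1021, S100a10 at 1264 and 478, S100a16 at 626 and 668, S100a11 at 839 and 437, S100a1 at 527 and 357 and S100b at 421 and 387. Each of these overlapped with the next, and only S100a13, at 310.1 and 322, was clear of the gene above it. S100b was thus the next to last of the 8 here and the fourth in mSC-like cells, by the mean of the plates. In cluster 3 S100b was the third, at 813 and 649, while in cluster 2 it was the sixth, at 260.2 and 284.

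Partners that S100 proteins are known to bind were also read. Of 13 partners listed, 11 were tested, and 1 was called between the classes, where 2.66% of all genes were. It was Anxa1, the partner of S100a11. It was at 279 and 535 CPM in mSC-like cells and at 1316 and 2286 in the nm(R)SC-like class, with a log2 ratio of −2.07 ± 0.39 (adjusted p = 0.0406, edgeR), the same sign as S100a11. Anxa2, the partner of S100a10, was at 982 and 1567 CPM against 1855 and 2138, with a ratio of −0.40 ± 0.40 (adjusted p = 0.828, edgeR). Ahnak, a scaffold bound by the complex of S100a10 and annexin A2, was at 510 and 297 against 1133 and 1151 CPM, with a ratio of −1.49 ± 0.41 (adjusted p = 0.106, edgeR). Fgf1, whose export involves S100a13, was at 218 and 149 CPM in mSC-like cells against 74.97 and 64.9, a ratio of 1.49 ± 0.41 (adjusted p = 0.107, edgeR). It had the opposite sign to S100a13.

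The median ratio of the partners was −0.98, against −0.13 for all genes. Of the partners, 4 (Anxa1, Ahnak, Fgf1 and Anxa6) had an unadjusted p under 0.05. Ryr1, a calcium channel that S100a1 acts on in muscle, was listed at 0 reads. None of 4 other annexins passed, with a median of −0.68, nor did any of the 3 calmodulin genes, with a median of −0.15. Of these, 2 annexins (Anxa3 and Anxa5) and 0 calmodulin genes had an unadjusted p under 0.05. DESeq2 and limma counts were not made for these lists.

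Markers of other cells were read beside the S100 genes, and their part in the ratios of S100a4 and S100a11 was not tested. The list for connective tissue and perineurial cells summed to 250 and 180 CPM in mSC-like and to 663 and 310 CPM in the nm(R)SC-like class, with Col1a1 at 202 and 99.96 against 648 and 279 CPM, while Pdgfra, which defines such cells, was at 0.0323 and 0 CPM against 0.181 and 0.00655. Slc2a1 of the same list went the other way, at 43.21 and 80.09 CPM in mSC-like against 12.97 and 29.11 in nm(R)SC-like cells. Lum changed direction between the plates, at 4.46 and 0 against 1.97 and 1.22 CPM. Of the 6 genes of this list 3 were tested and 0 passed. The immune list summed to 0.162 and 0 against 8.70 and 18.1 CPM, the endothelial list to 0.259 and 0.198 against 8.29 and 0.380, and the pericyte list to 54.4 and 19.4 against 4.09 and 13.2. The list of genes that respond to tissue dissociation summed to 7169 and 22191 CPM in mSC-like cells and to 10695 and 11164 CPM in the nm(R)SC-like class. Of its 8 genes 1, Hspa1a, was called, with the higher level in the latter. In cluster 1, where S100a4 was highest, connective tissue markers summed to 960 and 479 CPM, with Col1a1 alone at 939 and 462. Immune markers summed to 20.6 and 0.719 CPM there.

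The genes outside the family whose centred levels over the 10 sums per plate and cluster followed each S100 gene most closely were, among 8908 genes with a mean of 10 CPM or more, Chchd6, Scap and Lmf1 for S100b, with Pearson r from 0.917 to 0.948. For S100a11 they were Gpx1, Vim and Lmo4 (r from 0.966 to 0.978). For S100a4 Gm42674 came first (r = 1.00), as its shared reads make it, before Actb (0.972) and Trp53 (0.970). For S100a1 they were Jmjd4, Sbds and Cuedc1 (0.871 to 0.904), and for S100a10 Pfkp, Cenpf and Col1a2 (0.878 to 0.921). For S100a6 they were C330018D20Rik, Atg4d and Cog7 (0.965 to 0.987), for S100a13 Rab3b, Hfe and Nek6 (0.940 to 0.942) and for S100a16 Zfp212, Dusp6 and Ntrk2 (0.968 to 0.984). The sums share their libraries and the best of 8908 genes was taken each time, so these values are a description.

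Other genes with S100 in their symbol were few and sparse. Of 10 in the table, S100a9, S100g and S100z had 0 reads, S100a14, S100a2 and S100a5 had 10, 11 and 6 reads, and S100a8 had 63 reads, all in 1 cell. S100a3, a gene between S100a16 and S100a4, reached 49.6 and 23.8 CPM in mSC-like against 0.829 and 0.0196 CPM in the nm(R)SC-like class, but 67.2% and 66.5% of its mSC-like reads came from 1 cell per plate. Its log2 ratio was 8.01 ± 1.73 (adjusted p = 0.0576, edgeR), DESeq2 called it (adjusted p = 4.53e-10), and it shares exon bases with Gm42674. S100a7a was at 39.2 and 3.35 CPM against 1.37 and 11.9 (adjusted p = 0.931, edgeR), opposite on the plates. S100pbp, which codes for a protein that binds an S100 protein and is no S100 protein itself, was at 16.1 and 0.126 against 20.4 and 5.55 CPM.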

How the data were processed

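The deposited table holds raw read counts per gene and cell. The authors made it with STAR 2.6.1c, GRCm38.p5 and featureCounts, by the submitters' processing notes; strand setting and multi-mapping are not given in the sources used here. Identifiers were looked up in GENCODE M21, where 25664 of 25700 matched. The S100 genes and gene lists were chosen with earlier results of these data known. Following the study's methods, a cell needed 1500 or more genes, its counts were brought to a total of 100000, variable genes had a mean of 0.1 to 8 and dispersion over 1, and plates were integrated with 12 canonical dimensions and clustered at a resolution of 0.5 (Seurat 5.3.0, R 4.3.3). S100 genes were left out of clustering. A cluster took the name of the list with the higher level when 3 of its markers reached 50 CPM, unless its median depth was under 33.3% of that of its plate with none of them among its 10 leading genes, or markers of the other class led it. The depth condition left the cell-cycle cluster unnamed; in classes built from part of the genes it could be nm(R)SC-like. Doublets were not sought by a caller, because each well received 1 sorted cell.

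Counts were summed per plate and class or cluster and tested with edgeR 4.0.16 (quasi-likelihood, TMM, plate as a block, filterByExpr at a minimum of 10 reads, Benjamini-Hochberg limit 0.05). Other genes were tested between classes built from the other part of a random split of the genes, which matched the classes used for 94.9% and 95.0% of cells. Standard errors follow from each ratio and the F value. Within-plate ratios used a pseudocount of 1 CPM. Plates pair the classes, which came from the same mice, and the plate differences of the classes had r = 0.156 over 13188 genes. DESeq2 1.42.0 and limma 3.58.1 were alternatives. The scripts were tested on simulated data. All 8 S100 genes are named; other S100 genes are named where they reached 10 CPM in a class of a plate, or where the count of such genes was small, and likeness is the highest 3 Pearson r of log2(CPM + 1). The summed markers of all SCs are not reported here.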

Additional observations from a re-analysis of the deposited data

Results flagged for a closer look

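Some signal lay in cells that entered no comparison. In the cells under 1500 detected genes the 8 S100 genes summed to 2840 CPM on plate 1 (44 cells, 299 of 105291 reads) and to 6966 CPM on plate 2 (50 cells, 7204 of 1034231 reads). Their median depth was 2130.5 reads on plate 1 and 2450.5 on plate 2, so cells above the median held most of the plate 2 reads. In the unnamed cell-cycle cluster, with 15 and 13 cells, they summed to 3798 CPM on plate 1 and 6061 CPM on plate 2. The plate 2 cells of this cluster had a median of 4081 reads, and cell-cycle markers summed to 4294 CPM on plate 1 and 1332 on plate 2. S100b in that cluster was at 76.3 CPM on plate 1 and 3648 CPM on plate 2, where 99.4% of its 682 reads came from 1 cell.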

How the results depend on the processing

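Of 112 ratios between classes recomputed under settings that kept both plates, 103 held their direction and side of the limit, 4 passed the limit and 5 changed sign. Between the mSC-like clusters these numbers were 77, 1 and 2 of 80. Among the nm(R)SC-like clusters only the 3 ratios with an unadjusted p under 0.05 (edgeR) were recomputed. All 30 values of these kept their sign and did not pass. The cluster settings include a resolution of 0.3, which repeated the result of the main clustering. The S100 genes called between classes were 1 with DESeq2, 1 with limma and 2 in the fit on cluster sums (0 to 3 under alternatives of that fit, 0 without the block), and between mSC-like clusters 1 with DESeq2. Without the replicate block 0 were called in all 3 comparisons. S100a6 changed sign between classes at −0.16 (library size alone), −0.0376 (thinned cells), −0.00385 (S100 genes kept in the clustering), −0.076 (cluster sums) and −0.0196 (variable genes chosen over both plates, an alternative chosen after seeing the data), and between mSC-like clusters at 0.0166 (no replicate block) and 0.0401 (DESeq2); the cause was not tested. With 1 plate left out no test could be had, since no residual degrees of freedom remain. Between classes 4 of 16 such ratios kept their sign but lay 1 standard error of the fitted ratio or more from it, and 3 changed sign. Between mSC-like clusters these numbers were 7 and 1 of 16, and for the recomputed nm(R)SC-like ratios 3 and 0 of 6. The ratios with 1 plate left out ranged from −0.19 to −0.13 for S100a6 and from −1.31 to 0.10 for S100a10 between classes. For S100a1 they ranged from −0.37 to 1.57 between mSC-like clusters. All genes called between classes numbered 352, against 143 without the block, 1661 with DESeq2, 1728 with limma, 598 with thinned cells, 532 without a filter, 528 without integration, 221 with the higher gene minimum per cell and 193 with variable genes chosen over both plates. Between mSC-like clusters they were 57, against 16 without the block, 684 with DESeq2, 123 with thinned cells and 89 without a filter, and for any difference among nm(R)SC-like clusters 5, against 0, 115, 8 and 11. Of 32 shares of cells, 19 moved beyond their interval with a minimum of 5 reads and 11 without thinning.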
